A study of Mus musculus with 61 samples.

Results

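The genes of potassium channels were followed through a mouse brain cut into slabs. All genes whose symbol starts with Kcn were taken, except Kcne2, with 1 probe per gene, the one with the highest mean intensity. A gene was a member when its probe was well above background on at least 10 of the 61 arrays. Of 97 such symbols in the reference table, 78 had a named probe and 74 were members, out of 16358 named genes on the array. Of the members, 58 were well above background on all 61 arrays. The member nearest to the limit was Kcng3, on 19 arrays, followed by Kcnmb1 on 28 and Kcne1 on 32. The 4 genes outside it were Kcnj5, on 2 arrays, and Kcnj1, Kcnj15 and Kcnv2, on 1 each.

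All 6 mice were C57BL/6J males, an inbred strain, aged 8 weeks, and no treatment was compared. Each brain was cut into 5-µm sections along 1 axis, and 200 neighboring sections were pooled as a fraction of 1 mm. The sagittal series S and So had 9 and 10 fractions from left to right, the coronal series C and Co had 13 and 16 from posterior to anterior, and the horizontal series H and Ho had 6 and 7 from dorsal to ventral. The series So, Co and Ho were cut slightly obliquely, and each fraction was hybridized to 1 single-color array. The fractions that the study pairs between the mice of a plane form 28 pairs, named here c1 to c13, h1 to h6 and s1 to s9, while 5 fractions, Co1, Co13, Co16, So1 and Ho1, were left without one. A fraction is a slab that holds parts of many regions and all cell types in them, and in such bulk RNA fewer cells of a type and less RNA per cell cannot be told apart. The arrays of a pair are 2 brains, and p-values rest on the spread between such arrays, pooled over the 28 pairs. The fit treated the fractions of a mouse as independent, while each comparison of bands rests on the 2 mice of a plane. Deviations from the pair mean correlated within a mouse (median r = 0.278), so p-values do not measure the variation between brains alone.

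Potassium channels let potassium ions leave or enter the cell, which sets the resting potential and ends the action potential. The voltage-gated channels (Kcna to Kcnd, Kcnh, Kcnq) open when the membrane depolarizes, and the silent subunits (Kcnf, Kcng, Kcns, Kcnv) form no channel alone and modify other channels. The calcium- and sodium-activated channels (Kcnma1, Kcnn, Kcnt1) respond to ions inside the cell, the inward rectifiers (Kcnj) and the 2-pore-domain channels (Kcnk) carry resting currents, and accessory subunits (Kcnab, Kcne, Kcnip, Kcnmb) alter gating and transport. In the brain, fast-spiking neurons are known for Kcnc channels and astrocytes for Kcnj10. The values below are the log2 intensity of the probe minus the 75th percentile of its array. They compare a gene with itself across fractions and not the levels of different genes.

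The arrays had between 57.9% and 73.1% of the probes well above background, no saturated spot, and a median SD of 0.0637 (log2) between repeated spots of a probe. They lay on 16 slides and were scanned on 5 days, and C and Co as well as S and So (except S1) were scanned on different days, so that mouse and scan day cannot be told apart there. The marker genes of regions lay where the slabs should hold them. The highest fractions were C1 for the hindbrain gene Hoxb5, C3 for the cerebellar gene Cbln3, Co8 for the hippocampal gene Spink8, Co11 for the striatal gene Drd1 and Co15 for the olfactory bulb gene Eomes.

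Of the 74 members, 65 (87.8%) varied over the 28 pairs (limma's moderated F test, adjusted p under 0.05), and the share called was 61.3% among all 36573 detected probes and 61.9% among the 29655 probes that passed the same limit of 10 arrays. The median span over the 61 fractions, highest minus lowest, was 2.87 (log2) for the members and 2.13 for all detected probes. It was smallest for Kcnj8, at 1.02, and largest for Kcnj4, at 9.19. The largest F values were those of Kcnj4 (F = 140.4), Kcnf1 (F = 140.0), Kcnv1 (F = 85.9), Kcnip2 (F = 52.4), Kcnh3 (F = 40.7), Kcna4 (F = 38.6), Kcnab1 (F = 34.7), Kcnn4 (F = 27.1), Kcng4 (F = 25.4) and Kcna5 (F = 24.95). These 10 genes belong to the inward rectifiers, the silent subunits, the Elk channels, the Shaker channels, the calcium-activated channels and the accessory subunits. The 9 members that did not pass were Kcna3, Kcna7, Kcnab3, Kcne1, Kcne4, Kcnj2, Kcnj3, Kcnj8 and Kcnma1. With the mouse as a block in the fit, 72 members passed, among them Kcnab3 (adjusted p = 0.0287), Kcnj8 (adjusted p = 0.000401), Kcnj3 (adjusted p = 0.000449) and Kcnma1. The profiles of the 2 mice of a plane correlated across their pairs with a median r over members of 0.925 in the coronal plane (13 pairs), 0.826 in the horizontal plane (6 pairs) and 0.514 in the sagittal plane (9 pairs). The peaks of both mice were partners in all 3 planes for Kcnd3 and Kcnj10, in 2 planes for 5 members, in 1 plane for 31 and in none for 36. A peak in a fraction without a partner could not count, as for Kcnh7, which peaked in So1, Co13 and Ho1.

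**Figure D1:**
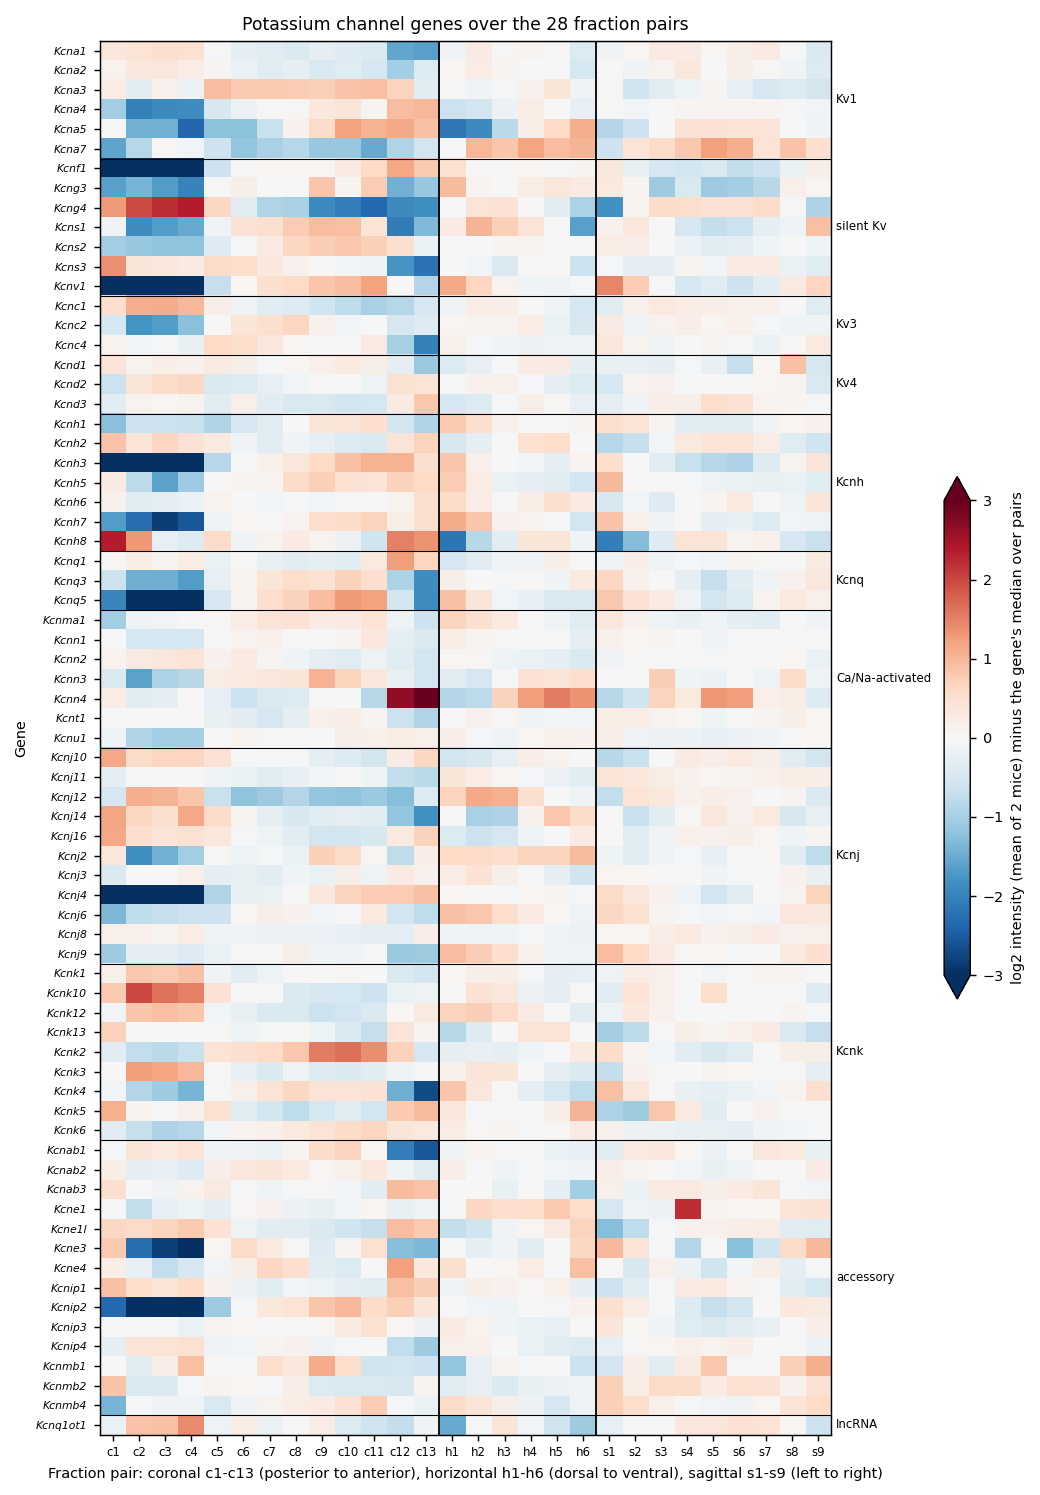
Each row is 1 of 71 genes, grouped by subfamily, and each column a pair of fractions, with the color giving the mean log2 intensity of the 2 mice minus the median of the gene over the 28 pairs (the scale is clipped at 3 on either side). The rows of Kcnj4, Kcnf1, Kcnv1, Kcnh3 and Kcnip2 are dark blue in the caudal coronal pairs, and Kcng4 is red there.

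To ask how the caudal end differs from the forebrain, the pairs c1 to c4 (8 arrays), which hold hindbrain and cerebellum, were compared with c7 to c11 (10 arrays). Of the 74 members, 61 differed, 27 higher and 34 lower caudally. The background was 50.9% of all detected probes (29.9% higher, 21.0% lower) and 57.5% of the probes under the same limit of 10 arrays (32.1% higher, 25.3% lower). In 32 members the arrays of the 2 bands did not overlap, which held for 17.8% of all detected probes and 21.7% of those under the limit. The median difference of the members was −0.14 (log2), and that of all detected probes was 0.13. Scaling to the median of each array moved all probes down by 0.125, and the share of calls that were higher was then 44.4% instead of 58.7% over all probes and 41.7% instead of 44.3% among the members. No member that was called changed direction. Of the caudal arrays, only Co5 shared a slide with a forebrain array (Co8), so that slide and position are hard to tell apart here. With a fixed block for the slide, 32 members were called caudally, 11 higher and 21 lower.

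Kcnj4, which encodes the strong inward rectifier Kir2.3, had the largest difference. Its values were between −3.47 and −0.71 with a median of −2.46 in the 8 caudal arrays, and between 4.25 and 5.27 with a median of 4.78 in the 10 forebrain arrays. All caudal arrays lay far below all forebrain arrays, and the difference was −6.86 ± 0.14 (SE, adjusted p = 7.71e-27, limma), a 116-fold lower intensity. It was −7.19 in the C mouse and −6.52 in the Co mouse. Kcnv1, a silent subunit, had values between −9.23 and −7.77 (median −8.76) caudally and between −2.89 and −2.02 (median −2.51) in the forebrain. It was well above background on none of the 8 caudal arrays, so that the intensity was at least 52.1-fold lower there (measured difference −6.17 ± 0.15, adjusted p = 7.05e-25). Here and below, such a bound sets the dim band at the lowest signal that was well above background on each array, or at the probe's own where that was higher.

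Kcnh3, an Elk-type voltage-gated channel, had values between −5.71 and −3.66 (median −4.93) caudally and between −0.24 and 0.74 (median 0.26) in the forebrain, a difference of −5.11 ± 0.18 (34.4-fold, adjusted p = 1.07e-20). Kcnf1, a silent subunit, lay between −2.85 and −1.59 (median −2.45) caudally and between 2.32 and 3.07 (median 2.51) in the forebrain, a difference of −4.90 ± 0.10 (29.8-fold, adjusted p = 7.71e-27). Kcnip2, an accessory subunit of the Kcnd channels, lay between −4.01 and −2.11 (median −3.20) caudally and between 0.44 and 1.18 (median 0.79) in the forebrain, a difference of −3.90 ± 0.12 (15.0-fold, adjusted p = 3.27e-22). In each of these 3 genes the bands did not overlap, and the step fell between c4 and c6 in both mice. Kcnq5, a subunit of the M-current, fell by 3.81 ± 0.19 on the log2 scale (14.1-fold), with 5 of the 8 caudal arrays well above background.

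**Figure D2:**
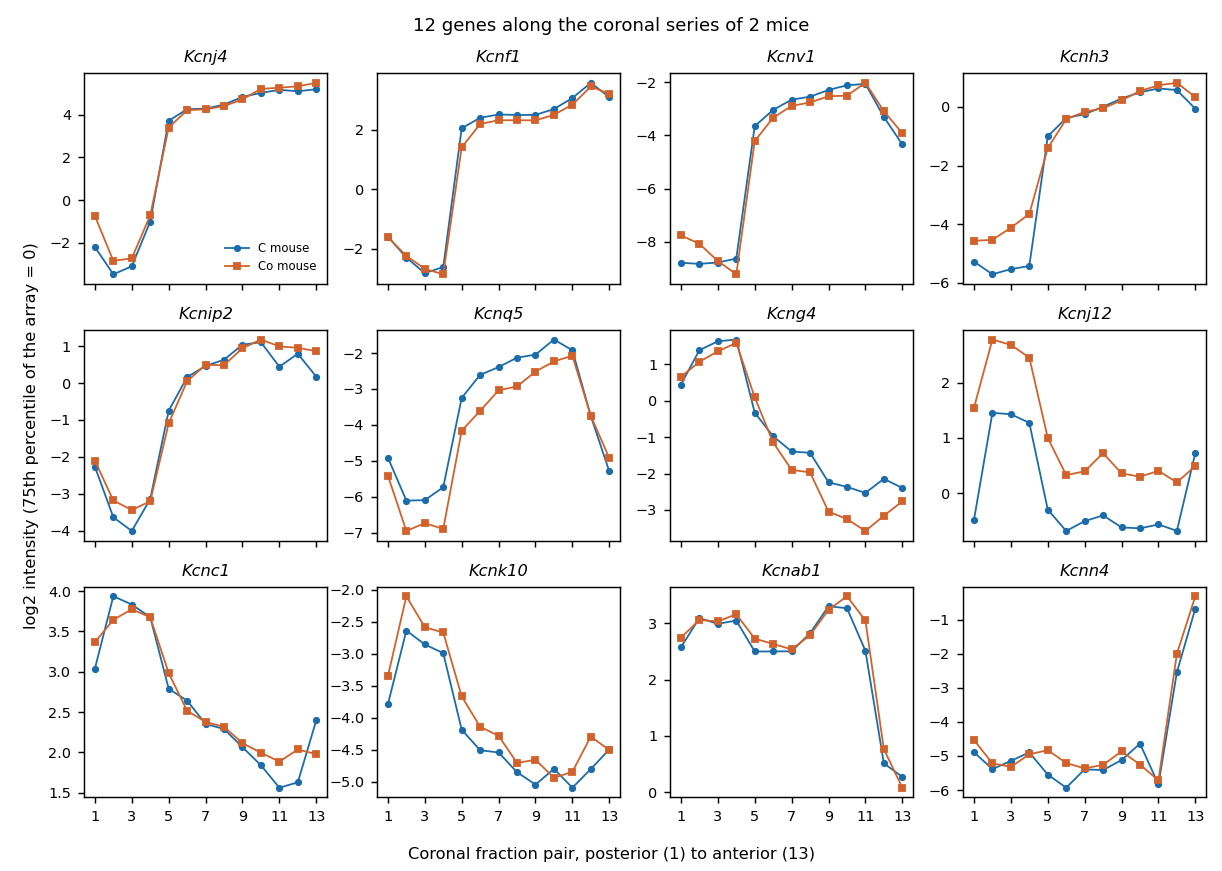
Log2 intensity of 12 genes (75th percentile of the array = 0) along the 13 coronal pairs from posterior to anterior, with 1 line per mouse and a vertical scale of its own in each panel. Kcnj4 and Kcnf1 rise between pairs 4 and 6 in both mice, Kcng4 and Kcnc1 fall over the same pairs, Kcnab1 drops at pairs 12 and 13, and Kcnn4 rises there.

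Other genes were higher caudally. Kcng4, a silent subunit, had values between 0.44 and 1.68 (median 1.37) caudally and between −3.58 and −1.39 (median −2.30) in the forebrain. The bands did not overlap, and the difference was 3.60 ± 0.17 (12.1-fold, adjusted p = 1.88e-17), 3.28 in C and 3.92 in Co. Kcnk10, the 2-pore-domain channel TREK-2, lay between −3.79 and −2.10 (median −2.76) caudally and between −5.09 and −4.28 (median −4.82) in the forebrain, a difference of 1.90 ± 0.12 (3.74-fold, adjusted p = 2.84e-14). Kcnc1, a channel that repolarizes fast-spiking neurons, lay between 3.04 and 3.94 (median 3.68) caudally and between 1.56 and 2.38 (median 2.09) in the forebrain, a difference of 1.54 ± 0.07 (2.90-fold, adjusted p = 2.52e-17). The bands of both genes did not overlap either. Kcnj12, the inward rectifier Kir2.2, overlapped between the bands, with −0.48 to 2.78 (median 1.50) caudally and −0.64 to 0.73 (median −0.05) in the forebrain, and its difference was 1.70 ± 0.27 (3.24-fold, adjusted p = 2.67e-06).

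Markers of regions and cell types moved along the same axis. All 4 cerebellar markers were higher caudally, with a mean of the list between 0.46 and 3.69 in c1 to c4 and between −3.84 and −2.21 in c7 to c11. All 3 cortical markers were lower, at −2.75 to −1.86 against −1.10 to 0.32. The 4 oligodendrocyte markers were higher (4.11 to 5.17 against 3.13 to 4.11), and the 3 microglial markers were lower (0.24 to 1.10 against 1.24 to 1.66). The 4 astrocyte markers went both ways, with 3 higher and 1 lower. The part of cell makeup in the differences of the members was not tested.

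Members with like profiles were looked at for their promoters. The genes shown are 2 pairs of members whose profiles were alike over the 61 fractions, Kcnj4 with Kcnf1 (r = 0.97) and Kcng4 with Kcnc1 (r = 0.93). They were taken from the genes with the largest caudal differences that have 1 start in the reference, and other alike pairs are not shown. Each line is the 250 bases before the RefSeq start, 5′ to 3′ on the strand of the gene (GRCm38.p6), with the GC box GGGCGG or its reverse complement in capitals. Kcnj4 is at chr15:79505242-79505491 on the minus strand, Kcnf1 at chr12:17176889-17177138 on the minus strand, Kcng4 at chr8:119635681-119635930 on the minus strand, and Kcnc1 at chr7:46396218-46396467 on the plus strand.
Kcnj4: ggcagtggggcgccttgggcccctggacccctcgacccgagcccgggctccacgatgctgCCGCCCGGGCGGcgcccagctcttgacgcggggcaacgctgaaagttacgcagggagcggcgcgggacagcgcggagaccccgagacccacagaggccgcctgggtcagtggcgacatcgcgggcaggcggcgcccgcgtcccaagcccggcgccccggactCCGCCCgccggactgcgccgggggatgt
Kcnf1: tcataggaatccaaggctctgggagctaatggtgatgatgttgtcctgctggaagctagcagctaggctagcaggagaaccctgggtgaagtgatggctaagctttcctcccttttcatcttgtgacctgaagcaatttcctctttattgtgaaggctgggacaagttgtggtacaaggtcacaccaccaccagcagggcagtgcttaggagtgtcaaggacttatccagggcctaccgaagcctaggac
Kcng4: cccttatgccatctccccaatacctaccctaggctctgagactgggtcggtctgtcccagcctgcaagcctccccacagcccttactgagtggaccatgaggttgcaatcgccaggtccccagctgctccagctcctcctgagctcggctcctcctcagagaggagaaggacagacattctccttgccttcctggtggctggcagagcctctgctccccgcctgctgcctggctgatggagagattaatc
Kcnc1: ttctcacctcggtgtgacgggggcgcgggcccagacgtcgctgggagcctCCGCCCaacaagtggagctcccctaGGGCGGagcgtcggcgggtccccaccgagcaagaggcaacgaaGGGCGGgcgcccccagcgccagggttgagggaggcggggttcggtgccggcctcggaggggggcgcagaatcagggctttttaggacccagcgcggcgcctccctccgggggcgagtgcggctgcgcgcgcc

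The windows of Kcnj4 and Kcnc1 are at starts inside the annotated span of the gene, while those of Kcnf1 and Kcng4 are directly before its outer end, so that the windows of a pair are not of the same kind of start. The Kcnj4 window held 3 GC boxes and 35 CpG dinucleotides, while that of Kcnf1 held no GC box and 1 CpG. The Kcnc1 window held 3 GC boxes and 30 CpG, and that of Kcng4 no GC box and 4 CpG. Kcnip2, whose profile was also like that of Kcnj4 (r = 0.96), had a window with 2 GC boxes and 15 CpG, which is not shown. Windows were found for 55 members (79 starts), of which 46.8% held a GC box on either strand, against 32.7% of the 32851 windows of all genes. A TATA box (TATAAA, either strand) was in 2.53% of the windows of members and 12.4% of all windows, and the CRE motif TGACGTCA in none of the former and 1.55% of the latter. At a share of 1.55%, very few of 79 windows would hold a CRE, so its absence is near that background. The GC box was in 44.8% of the 29 windows of members higher caudally and in 52.5% of the 40 windows of members lower caudally. These are descriptions of letters in the windows, and the start used in the brain is not known from the arrays.

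At the rostral end, c12 and c13 (4 arrays), which hold the olfactory bulb and the frontal pole, were compared with the same 10 forebrain arrays, so that both coronal comparisons share them. Of the members, 51 differed, 19 higher and 32 lower, against 37.8% of all detected probes (17.9% higher, 19.9% lower) and 44.6% under the limit of 10 arrays (20.8% higher, 23.8% lower). In 36 members the arrays did not overlap, against 18.7% and 22.7%. Kcnn4, the intermediate-conductance calcium-activated channel, was −2.54 and −0.67 in C and −2.00 and −0.31 in Co at the rostral end, and between −5.84 and −4.64 (median −5.31) in the forebrain. Every rostral array was above every forebrain array, and the difference was 3.91 ± 0.19 (15.0-fold, adjusted p = 4.45e-16). Kcnh8, an Elk channel (1.50 ± 0.21), the TASK-2 channel Kcnk5 (1.42 ± 0.31), the accessory Kcne1l (1.34 ± 0.19) and Kcnq1, best known from the heart (1.12 ± 0.12), were also higher. Kcnq1 overlapped, and Kcnk5 lost its call without the Co mouse (adjusted p = 0.0808). A fixed block for the slide gave a difference of 1.26 for Kcnh8 (adjusted p = 0.0633) and 1.39 for Kcnk5 (adjusted p = 0.169).

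Kcnab1, a beta subunit of the Kcna channels, fell most steeply at the rostral end. Its 4 rostral values lay between 0.08 and 0.76 and its forebrain values between 2.50 and 3.48 (median 2.94), a difference of −2.54 ± 0.10 (5.83-fold, adjusted p = 1.83e-18). It was 0.01 ± 0.08 between the caudal and the forebrain bands (adjusted p = 0.908). Kcnk4, the mechanosensitive channel TRAAK, was lower by 5.77-fold (−2.53 ± 0.16), and its rostral values, −3.01 to −0.97, lay below the forebrain range of 0.26 to 0.79. The silent subunits Kcns1 (−2.41 ± 0.29) and Kcns3 (−2.04 ± 0.12) and Kcnq5 (−2.14 ± 0.24) were lower as well, with no overlap in any of the 3. Kcnq3 (−1.91 ± 0.14), another subunit of the M-current, was lower too, with no overlap and 3 of the 4 rostral arrays well above background. All 4 olfactory bulb markers were higher in these pairs (list mean 3.05 to 3.63 against −4.37 to −0.47), and all 4 oligodendrocyte markers lower. Of the 4 astrocyte markers, 3 were higher and 1 was lower. All 4 meningeal markers were higher too (3.27 to 3.90 against 1.97 to 2.74), and all 3 cortical and 6 striatal markers were lower. The profile of Kcnk5 was most like the meningeal list (r = 0.79 over the 61 fractions). The part of cell makeup was not tested.

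**Figure D3:**
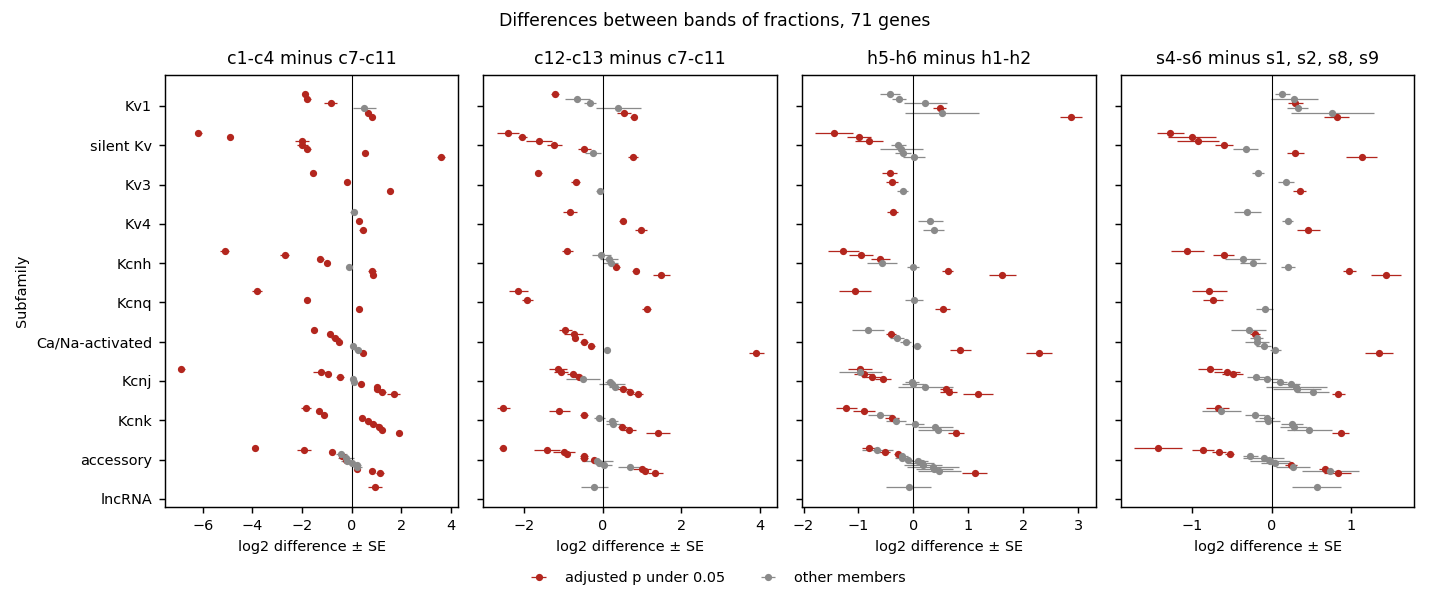
Each point is 1 of 71 genes with its log2 difference and SE between 2 bands of fractions (from left to right the caudal, rostral, ventral and midline comparisons, each with its own scale), by subfamily, and red points passed an adjusted p of 0.05. In the left panel the silent subunits reach from −6.17 (Kcnv1) to 3.60 (Kcng4), and the Kcnj genes from −6.86 (Kcnj4) to 1.70 (Kcnj12).

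In the horizontal plane, the ventral pairs h5 and h6 were compared with the dorsal pairs h1 and h2 (4 arrays each, 2 per mouse, all scanned on the same day). In each mouse the dorsal and the ventral arrays lay on different slides, so that slide and position cannot be told apart within these arrays. Of the members, 33 differed, 12 higher and 21 lower ventrally, against 14.3% of all detected probes (8.47% higher, 5.81% lower) and 16.9% under the limit of 10 arrays (10.1% higher, 6.8% lower). In 30 members the arrays did not overlap, against 21.9% and 26.3%. With scaling to the median, 37 differed, and the share of higher calls over all probes was 44.4% instead of 59.3%. The Shaker channel Kcna5 was −1.47, −1.38, −1.24 and −0.61 ventrally and −4.57, −4.27, −4.06 and −3.27 dorsally. The bands were well apart, and the difference was 2.87 ± 0.21 (7.31-fold, adjusted p = 2.79e-11), 3.43 in H and 2.31 in Ho. Kcnn4 was between −3.59 and −3.18 ventrally and between −6.14 and −5.50 dorsally (2.29 ± 0.23, 4.89-fold, adjusted p = 1.67e-08). Kcnh8 (1.61 ± 0.25), the Kir2.4 gene Kcnj14 (1.18 ± 0.27) and Kcne1l (1.12 ± 0.23) were higher ventrally, although Kcnj14 overlapped, its call was lost without the Ho mouse (adjusted p = 0.239), and Kcnh8 was well above background on 3 of the 4 dorsal arrays.

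Dorsal fractions were higher in Kcns1 (−1.44 ± 0.34), the Erg3 channel Kcnh7 (−1.27 ± 0.29), Kcnk4 (−1.22 ± 0.19), Kcnq5 (−1.06 ± 0.29) and Kcnv1 (−0.99 ± 0.22). Kcnk4 was between −0.85 and −0.29 ventrally and between 0.37 and 0.95 dorsally, with no overlap (2.34-fold, adjusted p = 2.16e-05). With 1 mouse of the plane left out, the adjusted p without H was 0.209 for Kcns1, 0.147 for Kcnh7, 0.32 for Kcnq5 and 0.293 for Kcnv1, and Kcnh7 (adjusted p = 0.0697) and Kcnq5 (adjusted p = 0.13) also lost the call without Ho. Under a fixed block for the slide, 7 genes named for this plane lost their calls, namely Kcnh8, Kcnj14, Kcne1l, Kcns1, Kcnh7, Kcnq5 and Kcnv1 (adjusted p from 0.0647 to 0.314). The differences in that fit were 1.43 for Kcnh8, 1.81 for Kcnj14, 1.29 for Kcne1l, −2.10 for Kcns1, −1.12 for Kcnh7, −0.98 for Kcnq5 and −0.90 for Kcnv1, each of the same sign as without the block. The gene with the largest coronal difference, Kcnj4, was flat here, at 4.37 to 4.55 ventrally and 4.38 to 4.58 dorsally (−0.00 ± 0.21, adjusted p = 0.995). Beside these, all 6 hypothalamic markers and all 4 oligodendrocyte markers were higher ventrally and all 3 cortical and 3 neuronal markers lower. The part of cell makeup was not tested.

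**Figure D4:**
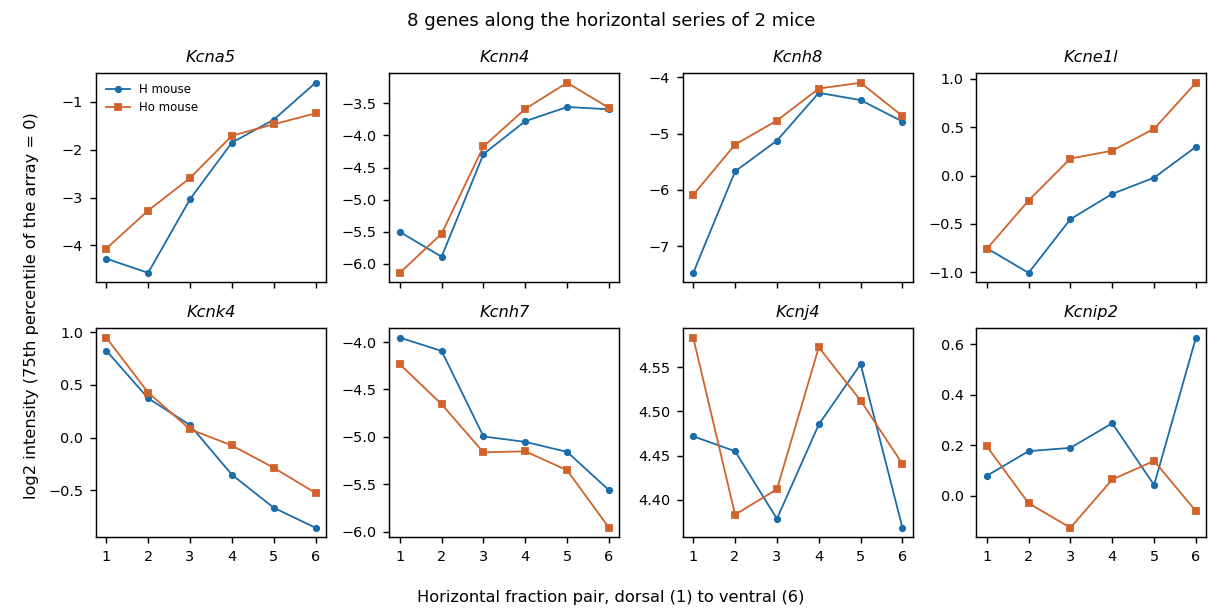
Log2 intensity of 8 genes (75th percentile of the array = 0) along the 6 horizontal pairs from dorsal to ventral, with 1 line per mouse and a vertical scale of its own in each panel. Kcna5 and Kcne1l climb towards the ventral end and Kcnk4 and Kcnh7 decline in both mice, while the range of Kcnj4 stays between 4.37 and 4.58.

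In the sagittal plane, the midline pairs s4 to s6 (6 arrays) were compared with the outer pairs s1, s2, s8 and s9 (8 arrays). Of the members, 32 differed, 14 higher and 18 lower at the midline, against 19.6% of all detected probes (10.6% higher, 9.01% lower) and 23.8% under the limit of 10 arrays (12.9% higher, 11.0% lower). In 14 members the arrays did not overlap, against 9.16% and 11.3%. Scaling to the median moved all probes down by 0.109, and the share of higher calls became 29.4% instead of 43.8% among the members (10 of 34) and 31.7% instead of 54.0% over all probes. The 10 genes named here kept their direction under that scaling. Kcnh8 was higher at the midline (1.44 ± 0.19, 2.72-fold, adjusted p = 7.89e-07), with −4.78 to −3.66 (median −4.28) there and −6.75 to −4.85 (median −5.43) outside, where 4 of the 8 arrays were well above background. Kcnh2, the Erg1 channel, was 0.96 to 1.32 (median 1.19) at the midline and −0.19 to 0.49 (median 0.20) outside, with no overlap (0.98 ± 0.08, 1.97-fold, adjusted p = 6.82e-11). The THIK-1 channel gene Kcnk13 (0.87 ± 0.10) and Kcng4 (1.14 ± 0.20) did not overlap either. Kcnn4 (1.35 ± 0.18) did, with 4 of the 8 outer arrays well above background.

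Kcnv1 was −4.12 to −3.35 (median −3.73) at the midline and −3.13 to −1.76 (median −2.48) outside, a difference of −1.28 ± 0.17 (2.43-fold, adjusted p = 1.25e-06) with no overlap. Kcnh3 (−1.06 ± 0.21) did not overlap either. The accessory Kcne3 (−1.43 ± 0.30) and Kcns1 (−0.93 ± 0.26) overlapped, and Kcne3 was well above background on 2 of the 6 midline arrays. Kcng3 was well above background on no array of either band, so no fold is given for it. The calls of Kcne3, Kcng4, Kcnh3 and Kcns1 were lost without the S mouse (adjusted p = 0.113, 0.0567, 0.129 and 0.0786). Beside these, all 4 oligodendrocyte markers were higher at the midline (list mean 3.85 to 4.24 against 2.07 to 3.45), as were all 6 hypothalamic, 4 hindbrain and 4 olfactory bulb markers, and all 3 cortical and 3 neuronal markers were lower. The part of cell makeup was not tested.

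Left against right, s1 to s4 minus s6 to s9 (8 arrays each), only the Erg2 channel Kcnh6 passed, at −0.36 ± 0.08 (1.29-fold, adjusted p = 0.0481), against 0.153% of all detected probes (0.041% higher and 0.112% lower on the left) and 0.158% under the limit of 10 arrays (0.0337% and 0.125%). Its arrays overlapped, with −5.52 to −4.77 (median −5.17) on the left, where 6 of 8 arrays were well above background, and −5.12 to −4.41 (median −4.75) on the right. It failed in 45 of the fits that left out an array or a mouse. No member had arrays that did not overlap, and the share was 0.134% over all probes and 0.165% under the limit. Of the hypothalamic markers, 4 of 6 were also lower on the left (list mean −3.68 to 1.44 against −2.11 to 1.66), as was 1 of 3 midbrain dopaminergic markers, and the part of such differences between the slabs of the 2 sides was not tested.

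By subfamily, the Shaker genes went different ways along the coronal axis. Kcna1 and Kcna2, which sit along axons near nodes and at terminals, were higher caudally by 0.80 ± 0.08 and 0.65 ± 0.12. Kcna1 was 5.53 to 5.89 (median 5.70) caudally and 4.78 to 5.12 (median 4.88) in the forebrain, with no overlap, and 3.42 to 3.89 at the rostral end (−1.21 ± 0.10). Kcna4, an A-type channel, was lower caudally (−1.89 ± 0.08, 3.70-fold), with −2.19 to −1.07 against −0.19 to 0.42, and higher rostrally (0.79 ± 0.10). Kcna5 had a caudal difference of −1.78 ± 0.14, beside the ventral one above.

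All 7 silent subunits differed caudally, 5 lower and 2 higher, against 50.9% of all detected probes (29.9% higher, 21.0% lower) and 57.5% under the limit of 10 arrays. The lower ones beside Kcnv1 and Kcnf1 were Kcng3 (−2.00 ± 0.26), Kcns1 (−1.98 ± 0.23) and Kcns2 (−1.78 ± 0.13). Kcng3 was well above background on no caudal array and on 6 of the 10 forebrain arrays, so no bound of its fold is given. Kcns3 was higher by 0.54 ± 0.09, with overlap.

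The Kcnc genes went different ways. Kcnc1 was higher caudally, as above, whereas Kcnc2 was lower (−1.55 ± 0.09, 2.92-fold, with −0.59 to 1.07 against 1.10 to 2.07). Kcnc4 was lower at the rostral end by 3.11-fold (−1.64 ± 0.08), with −0.96 to 0.34 against 1.19 to 1.67. The Kcnd genes, the pores of A-type currents in dendrites, had caudal differences of 0.08 ± 0.15 for Kcnd1 (adjusted p = 0.678), 0.32 ± 0.07 for Kcnd2 and 0.45 ± 0.13 for Kcnd3. A second probe of Kcnd2 was higher caudally by 0.81 but did not vary over the pairs (adjusted p = 0.0699). Of their accessory KChIP genes, Kcnip2 had a caudal difference of −3.90 and Kcnip1 of 0.83 ± 0.06, and Kcnip1 was also higher rostrally (1.07 ± 0.08). Kcnip4 was higher caudally (0.24 ± 0.07) and lower rostrally (−0.91 ± 0.08). The profile of Kcnd2 correlated with Kcnip1 at r = 0.39, with Kcnip4 at r = 0.26, with Kcnip2 at r = −0.25 and with Kcnip3 at r = −0.39. The 2 probes of Kcnip3 disagreed, at −0.22 and 0.34 in the caudal comparison with both called, and no direction is given for that gene.

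All 7 Kcnh genes varied over the pairs, as did 61.9% of all probes under the limit of 10 arrays. Caudally, Kcnh1 (−0.97 ± 0.11), Kcnh3, Kcnh5 (−1.26 ± 0.15) and Kcnh7 were lower, Kcnh7 by at least 6.17-fold since no caudal array was well above background, and Kcnh2 (0.88 ± 0.07) and Kcnh8 (0.82 ± 0.17) were higher. Kcnh2 was higher in all 4 comparisons of bands, at 0.84 ± 0.08 rostrally and 0.62 ± 0.10 ventrally. Of the Kcnq genes, Kcnq3 and Kcnq5 were lower both caudally and rostrally, with caudal differences of −1.82 ± 0.11 and −3.81, and Kcnq3 was well above background on 6 of the 8 caudal arrays. Kcnq3 and Kcnq5 correlated at r = 0.88 over the 61 fractions. Kcnq1 was higher caudally (0.31 ± 0.10) as well as rostrally.

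Among the ion-activated channels, the large-conductance Kcnma1 was not called over the pairs without a block for the mouse (F = 1.56, adjusted p = 0.162). With that block it was called (F = 8.54, adjusted p = 1.15e-06). It was lower caudally (−0.65 ± 0.19) and rostrally (−0.73 ± 0.24). The small-conductance genes differed from each other, with caudal differences of −0.50 ± 0.08 for Kcnn1, 0.45 ± 0.06 for Kcnn2 and −1.52 ± 0.13 for Kcnn3, and a second probe of Kcnn2 did not vary (adjusted p = 0.316). Kcnn3 was well above background on 6 of the 8 caudal arrays, and it was higher ventrally (0.86 ± 0.20). The sodium-activated Kcnt1 was lower rostrally (−0.70 ± 0.09) and 0.06 ± 0.07 caudally (adjusted p = 0.485). Kcnu1, known from sperm, had a caudal difference of −0.85 ± 0.05, with −3.48 to −2.43 against −2.39 to −2.04. Kcnmb4, the accessory subunit of neuronal Kcnma1 channels, was lower in all 4 comparisons, from −0.48 ± 0.10 rostrally to −0.82 ± 0.11 ventrally.

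Of the 11 inward rectifiers, 9 differed caudally (81.8%, against 57.5% of all probes under the limit of 10 arrays), 5 higher and 4 lower (32.1% and 25.3% of those probes). The strong rectifiers of the Kir2 group went both ways, with Kcnj4 lower and Kcnj12 and Kcnj14 (1.22 ± 0.18) higher. Kcnj2 was −1.21 ± 0.34, with 6 of the 8 caudal arrays well above background. The glial pair Kcnj10 and Kcnj16 (r = 0.75) was higher caudally, at 1.03 ± 0.08 and 1.03 ± 0.11, rostrally, at 0.70 ± 0.09 and 0.90 ± 0.13, and ventrally, at 0.59 ± 0.11 and 0.64 ± 0.16. Kcnj10 was 4.91 to 5.72 (median 5.16) caudally and 3.66 to 4.54 (median 4.24) in the forebrain, with no overlap. The G-protein-gated Kcnj3 was not called over the pairs without a block for the mouse (F = 1.51, adjusted p = 0.182) but was with it (F = 4.34, adjusted p = 0.000449). Kcnj3 was lower ventrally (−0.76 ± 0.18), as were Kcnj6 (−0.90 ± 0.18) and Kcnj9 (−0.97 ± 0.22), with no overlap in any of the 3. Kcnj6 was −4.04 to −3.72 ventrally and −3.16 to −2.87 dorsally. The ATP-sensitive pore Kcnj8, known in vessels, was not called over the pairs without the mouse block (F = 1.94, adjusted p = 0.0639) but was with it (F = 4.40, adjusted p = 0.000401). Kcnj8 was higher caudally (0.36 ± 0.09, adjusted p = 0.000715), and Kcnj11 was lower rostrally (−0.60 ± 0.12) and ventrally (−0.55 ± 0.15).

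All 9 Kcnk genes, the 2-pore-domain channels, differed caudally, 6 higher and 3 lower, against the same 50.9% and 57.5% (29.9% and 32.1% higher, 21.0% and 25.3% lower). Beside Kcnk10, the TASK-1 gene Kcnk3 (1.22 ± 0.15) and Kcnk12 (1.12 ± 0.14), Kcnk5 (0.88 ± 0.24), Kcnk1 (0.68 ± 0.09) and Kcnk13 (0.43 ± 0.09) were higher. The TREK-1 gene Kcnk2 (−1.84 ± 0.22, 3.57-fold), Kcnk4 (−1.31 ± 0.13) and Kcnk6 (−1.12 ± 0.11) were lower. Kcnk2 was −2.85 to −1.59 caudally and −1.42 to 0.31 in the forebrain, with no overlap, while Kcnk3 overlapped. The 3 mechanosensitive genes Kcnk2, Kcnk4 and Kcnk10 had caudal differences of both signs. Of the 14 accessory genes, 8 (57.1%) differed caudally, 3 higher and 5 lower, a share near the 57.5% of all probes under the limit of 10 arrays. Rostrally 10 (71.4%) differed, against 44.6% under that limit. Kcnab2 was −0.40 ± 0.09 caudally, and Kcnab3 was higher rostrally (1.01 ± 0.24). Over the pairs, Kcnab3 was not called without a block for the mouse (F = 1.68, adjusted p = 0.122) but was with it (F = 2.335, adjusted p = 0.0287). Kcne1l was higher in all 4 comparisons of bands, and Kcne3 lower caudally (−1.92 ± 0.27), where 2 of 8 arrays were well above background. The noncoding Kcnq1ot1 overlaps Kcnq1, so that the values of both are uncertain, and it was higher caudally by 0.94 ± 0.27.

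Proteins that assemble with these channels or carry the opposing pacemaker current were taken from a list of 18 genes, of which 14 were measured and 12 varied over the pairs, against 61.3% of all detected probes. Caudally 6 were higher and 4 lower, rostrally 3 and 6, ventrally none and 2, and at the midline 5 and 1. The shares of all detected probes called in these comparisons were 50.9%, 37.8%, 14.3% and 19.6%, and 2 of 14 ventrally is at that background. Abcc8, the sulfonylurea receptor that pairs with Kcnj11, was lower rostrally (−1.31 ± 0.11) and ventrally (−0.96 ± 0.13), the same signs as Kcnj11. Cntn2, which anchors Kcna channels at axons, was higher caudally (0.94 ± 0.13) and lower rostrally (−0.96 ± 0.16), the same signs as Kcna1. Lgi1, a secreted partner of Kcna channels, was lower caudally (−0.98 ± 0.09) and rostrally (−1.27 ± 0.12). Dpp6 was higher caudally (0.52 ± 0.08), and Dpp10 was lower ventrally (−0.43 ± 0.08), both being partners of Kcnd channels, and these last 2 were chosen after their values were seen.

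Some of these genes are direct neighbors among the protein-coding genes of the mouse annotation (GRCm38.p6), and their profiles were set side by side over the 61 fractions. Of 7 neighboring pairs of members and partners, Kcnj11 and Abcc8 correlated at r = 0.87 and Kcnj8 and Abcc9, the other sulfonylurea receptor, at r = 0.40. The other pairs had a negative r, which was −0.69 for Kcnj9 and Kcnj10, −0.45 for Kcna1 and Kcna5, −0.23 for Kcna2 and Kcna3, −0.22 for Kcnj2 and Kcnj16, and −0.09 for Kcnip1 and Kcnmb1. Over all 2701 pairs of members the median r was 0.01, and it was −0.01 over the 275 pairs within a subfamily. The fractions share brains and slides, and no p is given.

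The profile of each member was also compared with the mean profile of 19 lists of region and cell type markers, each mouse centered. The cerebellar list was the most alike for 12 members, among them Kcng4 (r = 0.91), Kcnk10 (r = 0.91), Kcnc1 (r = 0.89), Kcnk3 (r = 0.89) and Kcnj12 (r = 0.89). The cortical list was the most alike for 17 members, among them Kcnq5 (r = 0.91) and Kcnq3 (r = 0.85). The neuronal list was the most alike for Kcnj6 (r = 0.91), Kcnh1 (r = 0.90) and Kcnmb4 (r = 0.88), the olfactory bulb list for Kcnn4 (r = 0.88), the hindbrain list for Kcnj10 (r = 0.84), the astrocyte list for Kcnj16 (r = 0.80) and the endothelial list for Kcnj8 (r = 0.70). The microglial list, 3 genes that are themselves lower in the caudal slabs, was the most alike for 9 members, among them Kcnu1 (r = 0.91), Kcnf1 (r = 0.80), Kcnip2 (r = 0.80), Kcnj4 (r = 0.79) and Kcnh3 (r = 0.78). A likeness in slabs of 1 mm does not place a gene in a cell type.

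Between the 2 mice of a plane, 45 members (60.8%) differed (limma's moderated F test over the 3 planes), against 63.1% of all detected probes and 74.1% under the limit of 10 arrays. Among the largest F values were those of Kcnma1 (44.2), Kcnk3 (34.6), Kcnj12 (33.9) and Kcnq1ot1 (28.6). The difference Co minus C was −0.77 for Kcnma1, and Co was higher by 1.05 for Kcnj12, 0.77 for Kcnq1ot1 and 0.52 for Kcnk3. With the slide as a random block, 18 members differed, and mouse and scan day cannot be told apart in the coronal plane.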

How the data were processed

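Total RNA of 61 fractions of 6 brains was measured on single-color Agilent arrays. The deposited intensity of each spot is the processed signal of Feature Extraction (9.1 in the submitters' processing notes), after background subtraction by that software and with no scaling between arrays. The authors also deposited a table of intensities divided by 1 constant per array. Of its value columns, 0 were left unused. Here, the spots of each probe were averaged on the log2 scale and reduced by the 75th percentile of the array. Gene names came from RefSeq accessions (22951 of 41174 probes). A group was a pair of fractions as the study lists them (replicate 1 from S, C or H and 2 from So, Co or Ho), and S fractions, labelled 2 to 10, were renumbered 1 to 9. The design was fitted with limma 3.58.1 (lmFit, eBayes) in R 4.3.3 over 28 pairs, with 28 residual degrees of freedom, and p-values were adjusted over all 36573 detected probes (Benjamini-Hochberg). The fit was also run on simulated arrays with independent errors. These hold no correlation within a mouse or a slide, so they cannot show how such correlation affects the calls. Python 3.11.15 was used for counts and profiles.

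The members and lists were chosen with earlier results of these data known. Named were the 10 members with the largest F, the 5 largest differences in each direction per comparison, members called left against right, the 5 largest F between mice, the 5 brightest members that did not vary, the brightest member of each subfamily, and partners and others by their role, the latter chosen after their values were seen. Within a plane, a replicate number stands for 1 mouse. The median r of deviations from the pair mean was 0.278 within a mouse (129 combinations) and −0.0255 between mice (249). Alternatives were other scalings, the authors' table, normexp with an offset of 50 and quantile normalization, other filters and thresholds, second probes, other pairings, an F test without moderation, blocks for mouse, slide and scan day, single planes, and each array or mouse left out. Some genes that these rules name are not reported here, while counts cover all members. Precision is limited by the number of arrays.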

Additional observations from a re-analysis of the deposited data

Results flagged for a closer look

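Of 370 combinations of a member and a comparison, 2 had every array of one band above or below every array of the other in both mice but in opposite directions, and these differences between mice were not tested. Kcna7 was higher at the rostral end by 2.36 in C and differed by −1.56 in Co, which is 3.91 between the mice. Its values were −1.68 and −0.95 in C12 and C13 and −5.31 and −5.32 in their partners. Kcns2 was 0.21 ventrally in H and −0.20 in Ho, which is 0.41 between the mice.

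Fractions with no partner enter no comparison. In 19 members the highest of all 61 fractions was one of these 5, and 3 members exceeded the highest paired fraction by at least 0.5 (log2). Kcns1 was −0.15 in So1, the outermost left fraction, and −1.17 in So10. Kcne1l was 1.82 in Co1, the most posterior fraction, and 0.96 in Ho7. Kcnj14 was −0.0812 in Co1 and −0.79 in Co2. Each value rests on 1 array.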

How the results depend on the processing

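Over 72 results for named genes, 5425 alternatives were run, of which 5232 kept direction and side of the threshold, 152 were no longer called, 41 became called and none reversed. An F test has no direction, so the results for variation and for mice could not reverse. An array or mouse of another plane, left out, cannot change a difference between bands, only its SE and p-value. The authors' table gave the same counts as scaling to the median. Many of these alternatives were therefore no independent check. Variation over the pairs was called for 65 members, and for 64 to 67 without 1 array (61 to 67 without 1 mouse), 29 with horizontal pairs alone and 14 with sagittal pairs alone, where fewer arrays were fitted. Without 1 array, caudal counts stayed at 61 (56 to 61 without 1 mouse), rostral counts were 46 to 54 (43 to 52), ventral counts 28 to 35 (10 to 38), midline counts 27 to 34 (17 to 37), left against right 0 to 3 (0 to 1) and differences between mice 43 to 49. The ventral count of 33 became 10 without the H mouse and 17 without Ho, and the midline count of 32 became 17 without S. With the mouse as a replicate block, 72 members varied, and 62 caudal, 58 rostral, 42 ventral, 45 midline and 2 left-right calls were made. This block kept all calls made without it. A fixed block for the slide gave 32 caudal, 36 rostral and 11 ventral calls, of which 32, 35 and 7 were among the calls made without it. The pair s1 has both arrays on the same slide, and no other pair does. The midline and left-right results could not be fitted with the slide as a fixed block, nor the difference between mice with slide or scan day fixed. With the slide as a random block, 18 members differed between mice and 0 between left and right. Pairing by each series' own fraction number gave 15 rostral, 13 ventral, 15 midline and 0 left-right calls and 25 between mice, and the cause was not tested beyond the partners being other slabs. The left-right count of 1 became 2 with scan day as a fixed block and 0 with scaling to the median, the table of the authors, normexp and quantile normalization, all probes, only probes above background on all arrays, an adjusted p of 0.01 or sagittal pairs alone. Over all probes, the share of left-right calls higher on the left was 26.8%, and 44.8% when scaled to the median.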

Other observations

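Kcne1 was −2.03 in So5 and −5.64 or lower in all other S and So fractions. It was well above background on 2 of the 6 midline arrays and 1 of the 8 outer arrays, so that the low values are mostly at background and have no order.

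Across planes, Kcnd3 peaked in C13 and Co15, in H4 and Ho5, and in sagittal fractions that are partners. Kcnn4 and Kcnk5 were highest in Co16 and Kcnab2, Kcnh3, Kcnh7, Kcnj6 and Kcnmb4 in Ho1, which lie at the anterior and dorsal ends and have no partner.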
